A study of Danio rerio with 3 samples.

Results

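The transcripts described here are those whose signal in vehicle-treated zebrafish embryos stood highest at 12 hours post fertilisation (hpf), above both 5 and 24 hpf. They are 150 of the 27355 gene names on the array. They were chosen from the vehicle channel alone: the processed signal of each probe was divided by the 90th percentile of its array, averaged per gene name, raised by 0.005 and put on a log2 scale. The 150 names with the largest gap between 12 hpf and the higher of 5 and 24 hpf were kept. That gap is called the 12 hpf difference below, and a scaled signal of 1 is that of the probe at the 90th percentile of its array.

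The study compared whole wild-type zebrafish embryos after an early hormone bath on 2-colour oligonucleotide arrays, with 1 sample at each of 3 stages. In the cortisol group the eggs were held from 0 to 2 hpf in the steroid hormone cortisol at 13.8 µM (5 mg/L), and their RNA was labelled red (Cy5). In the vehicle group the eggs were held over the same time in ethanol alone at 2 ml/L, and their RNA was labelled green (Cy3), with no dye swap. Both groups were then raised at 28.5 °C to 5, 12 or 24 hpf. The labels state 4 replicates at 5 hpf, 3 at 12 hpf and 1 at 24 hpf, but each stage has 1 set of values. No spread between batches of embryos could be computed, so no test is given, and stage cannot be told apart from array. The only error available is the spread between different probes of a gene. The embryos were measured whole, so fewer cells of a type and less RNA per cell cannot be told apart.

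At 12 hpf the zebrafish embryo is early in segmentation. Somites, the blocks of mesoderm that later form muscle and skeleton, bud in order from the presomitic mesoderm, under a clock of cyclic repressors and a front set by tailbud signals. T-box and basic helix-loop-helix factors give the presomitic mesoderm its identity, and Mesp and Ripply proteins act at the next boundary. In the same hours the eye field and the hindbrain segments are specified, the hatching gland differentiates and the first blood and vessel precursors appear. The sample at 5 hpf falls in the late blastula, before gastrulation, and the sample at 24 hpf comes when most trunk muscle has been laid down.

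The order of the 5 and 24 hpf labels was set against genes of known timing, in lists chosen with earlier results of these data known. The 12 hpf label was not checked in this way. Of 21 maternal and early genes found on the array, the vehicle signal of 21 fell short at 24 hpf of its value at 5 hpf, while for 28 of 29 genes of differentiated tissue it was higher at 24 hpf. The 12 hpf difference of the members ran from 1.31 to 11.03 (log2), with a median of 1.66, against a median of -0.31 over all names. That median takes in dim names: wnt7aa and kremen1, with almost no signal at any stage, lay at -0.29 and -0.32. Over all names, 20.3% had a difference above 0 and 362 had one of at least 1. All of these values were used by the selection and are description only. The last 5 names inside the limit were aqp10a at 1.318, LOC100141479 at 1.317, itm2cb at 1.315, sla2b at 1.313 and si:ch211-13n20.2 at 1.3105. The first 5 outside it were TC380939 at 1.3102, prss60.1 at 1.308, vrk1 at 1.306, gdpd1 at 1.303 and irx3b at 1.302, so no gap separates the members from the rest.

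The median scaled vehicle signal of the members was 0.00817 at 5 hpf, 0.222 at 12 hpf and 0.0433 at 24 hpf. On this scale 129 were lower at 5 than at 24 hpf, and 21 were lower at 24 than at 5 hpf. A dim signal scales lower at 5 hpf, where the divisor, the 90th percentile, was 3980 against 1670 at 24 hpf. In members with no signal above background at either stage, this order is therefore not measured. The limit for a signal above background was set from 153 negative controls, as their mean with 2 SD added. By that limit 115 members were above background in vehicle at 5 hpf, 150 at 12 hpf and 127 at 24 hpf. These are 76.7%, 100% and 84.7% of the members, against 74.0%, 74.1% and 72.1% of all names, so at 5 hpf the members were near the share of all names. Above the limit at all stages were 104 members, and at 12 hpf only, 12. Of the members, 100 rested on 1 probe. Of the 50 with several probes, 41 had every probe higher at 12 hpf, and 118 of their 127 probes were so. These probes entered the mean that chose the members, so their counts, here and for single genes below, are description only. The pooled SD of the 12 hpf difference between probes of a gene was 1.11 (log2) for members and 0.67 over all names.

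**Figure D1:**
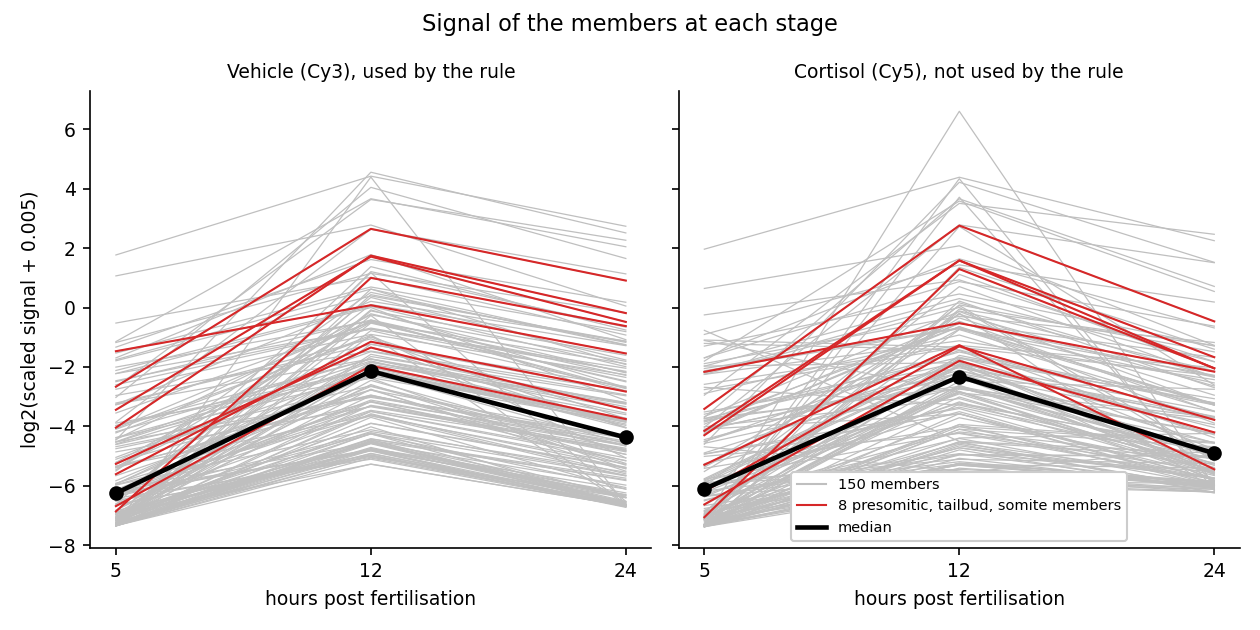
Scaled signal of the 150 members, as log2 of the signal plus 0.005, against stage in the vehicle channel (left) and the cortisol channel (right). Grey lines are single members, red lines are the 8 members of the presomitic, tailbud and somite list, and the black line is the median. The left panel rises and falls by selection, and the right panel shows the same rise and fall in the median of embryos that the rule did not use.

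Of 14 gene lists for tissues and pathways of this age, the one for presomitic mesoderm, tailbud and somite clock held the most members, 8 of its 47 names on the array (17.0%). Over all names the members were 150 of 27355, so the lists with 1 member, at 1.61% to 4%, also lay above that share. The lists were chosen with earlier results of these data known. Of those 47 names, 24 had a difference above 0 and 12 a difference of at least 1, and the median was 0.08. The median of -0.31 over all names takes in names with almost no signal and is no baseline for expressed genes. The members were cdx4, mespba, tbx16l, ripply2, msgn1, ripply1, tbx6 and hes6, which cover tailbud identity, presomitic fate, boundary formation and the clock.

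Among the factors of tailbud and presomitic identity, msgn1 encodes mesogenin, a helix-loop-helix factor of presomitic fate. Its scaled vehicle signal was 0.153 at 5 hpf, 6.26 at 12 hpf and 1.87 at 24 hpf, higher at 12 hpf in all 5 probes. The T-box gene tbx16l, which the array calls tbx6, was at 0.0557, 3.35 and 0.873. The gene now called tbx6 (tbx24 on the array), the T-box factor lost in fused somites mutants, was at 0.0036, 1.99 and 0.643. All 3 factors were lower at 5 than at 24 hpf and above background at each stage. The caudal homeobox gene cdx4, which patterns the posterior body, was at 0.0871, 3.27 and 0.71, with a difference of 2.197.

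At the segment boundary, mespba (mespb on the array) encodes a factor of the anterior somite compartment. It was at 0.0211, 0.388 and 0.0874 in vehicle, with a difference of 2.09. The genes ripply1 and ripply2 encode repressors that end the presomitic programme where a boundary forms. Vehicle signal of ripply1 was 0.0155, 0.446 and 0.136, and that of ripply2 was 0.00474, 0.252 and 0.0691. Of the 4 probes of ripply2, 3 were higher at 12 hpf. The clock partner hes6 had the smallest difference of the 8, 1.55, with 0.356, 1.05 and 0.338.

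Other genes of the segmentation list had positive differences below the limit of the members. The somite factor meox1 had a difference of 1.27, mespaa 1.25, cdx1a 1.198, the protocadherin gene pcdh8 1.09, foxc1a 0.97 and tcf15 0.96. The signals wnt5b at 0.86, fgf8a at 0.83 and the Notch ligand gene dlc at 0.78 followed, and then the clock gene her1 at 0.75. The list was not uniform. Vehicle signal of the T-box gene tbx16, which acts in gastrulation, was 3.93 at 5 hpf, 0.685 at 12 hpf and 0.158 at 24 hpf, and the Notch modifier gene lfng was at 1.53, 3.86 and 5.07.

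Of the list of myogenic factors and muscle, 1 of 42 names was a member and the median difference was -3.58. That member, myf5, encodes the first myogenic factor to act in the somites. Its vehicle signal was 0.00509 at 5 hpf, 2.59 at 12 hpf and 0.587 at 24 hpf, and all 4 probes were higher at 12 hpf. Other members act near the somites but stood in no list. The doublesex-related factor dmrt2a, needed for symmetric somite formation, was at 0.00152, 0.261 and 0.1. The homeobox gene lbx2 was at 0.00339, 0.0371 and 0.0109, above background at 5 and 12 hpf.

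**Figure D2:**
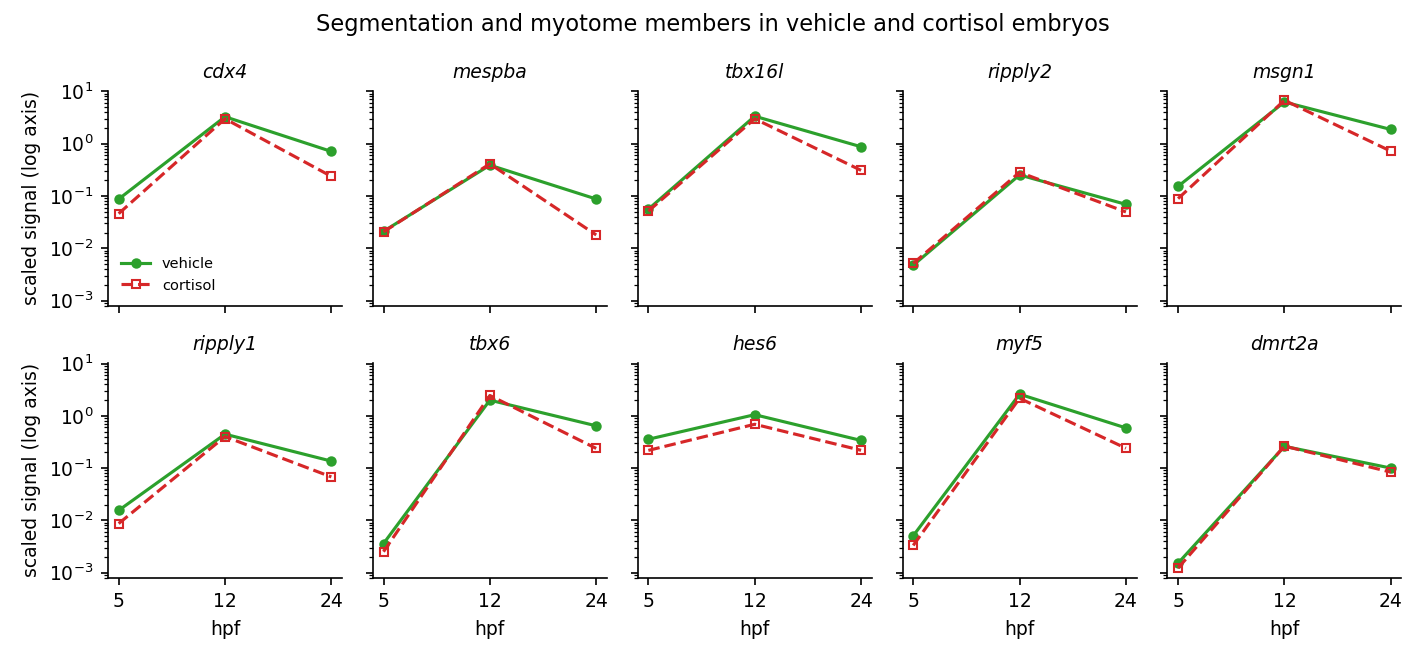
Scaled signal (log axis) of the 8 segmentation list members, myf5 and dmrt2a at 5, 12 and 24 hpf, with vehicle as filled green circles and cortisol as open red squares, 1 value per point. The channels lie close at 12 hpf, and at 24 hpf the cortisol point is below the vehicle point in all 10 panels. The red channel was dim at 24 hpf, so a lower point is not always a measured decrease. There mespba had no cortisol over vehicle ratio, and the log2 ratio was -0.02 in dmrt2a and -0.11 in ripply2.

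The neural plate and brain list held 4 members of 76 names, with a median difference of -0.21. The zinc finger gene egr2b, which marks hindbrain segments, was not above background at 5 hpf (0.00121) and was at 2.30 at 12 hpf and 0.629 at 24 hpf. The repressor gene her3 was at 0.0412, 0.838 and 0.28, and the Iroquois gene irx7 was at 0.691, 2.02 and 0.522. The eye field gene rx3 was above background at 12 hpf only, with 0.00116, 0.0368 and 0.00508. A further eye gene in no list, six7, known for its part in cone photoreceptors, was at 0.00629, 1.26 and 0.289. The homeobox gene nkx1.2la was above background at 12 hpf only, at 0.0333. Genes of neurogenesis gave 0 members of 38 names, and the Hox clusters gave 0 of 48, where hoxa9a and hoxb1b came closest with 1.27 each. With 150 members among 27355 names, a count of 0 in lists of this size is not read as a lack.

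Of the neural crest list, 1 of 34 names was a member, the homeobox gene msx1a (msxe on the array), at 0.00618 at 5 hpf, 1.07 at 12 hpf and 0.406 at 24 hpf. Of the placode and epidermis list, 1 of 62 was a member, the keratin gene krt99, at 0.447, 12.6 and 4.12. A second keratin gene outside the list, krt95, was at 0.00236, 0.0624 and 0.019. The extracellular matrix list gave 1 of 38, fn1a, which encodes fibronectin, a matrix protein needed at somite boundaries. Its vehicle signal was 0.0547, 0.719 and 0.146. Notochord and floor plate genes gave 0 members of 32, and cell cycle genes gave 0 of 39. Beside 150 of 27355 names overall on the array, these counts of 0 are likewise not read as a lack. The median difference was -0.55 in the neural crest list, -0.31 in the placode and epidermis list and -0.61 in the matrix list.

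Several members encode proteases, of the hatching gland or of lysosomes. The hatching gland list had a median difference of -0.74, with 4 of 16 names above 0, and gave 2 members, he1.1 and agr2. Of these, agr2 was higher at 12 hpf in 1 of 2 probes, and its difference on scanner signals was -2.35, as described below. The gene he1.1 (he1a on the array) encodes the enzyme that digests the egg envelope. It was at 0.00122 and not above background at 5 hpf, then at 1.53 at 12 hpf and 0.259 at 24 hpf, although it also stood in the list of late genes. The cathepsin gene ctsl.1 was at 0.0192, 0.39 and 0.0561, the lysosomal protease gene ctsh at 0.392, 3.06 and 1.13, and the dipeptidyl peptidase gene dpp7 at 0.0991, 1.15 and 0.452. The transcript MGC174155, which has no descriptive symbol in RefSeq, was at 0.118, 16.5 and 3.13 with all 5 probes higher at 12 hpf.

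In the blood, vessel and kidney list 2 of 47 names were members. Of the 47, 10 had a difference above 0, and the median was -1.43. The transcription cofactor gene lmo2, which acts in blood and vessel precursors, was at 0.00383 at 5 hpf, 0.273 at 12 hpf and 0.103 at 24 hpf, in 3 of 3 probes higher at 12 hpf. The repressor gene gfi1aa of primitive red cells was at 0.0012, 0.0836 and 0.0232. From the endoderm list 1 of 25 was a member, the homeobox gene nkx2.7 of heart and pharynx, at 0.00237, 0.69 and 0.175. The median difference of that list was -0.28.

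The signalling list gave 3 members of 78 names, with a median difference of -0.12. The phosphatase gene dusp2, whose product switches off MAP kinases, had a difference of 2.76, with vehicle signals of 0.00198 at 5 hpf, 0.144 at 12 hpf and 0.017 at 24 hpf. The retinoic acid receptor gene rarga was at 0.0111, 0.0749 and 0.0209. The gene szl, for the BMP feedback inhibitor sizzled, was among the 21 members lower at 24 than at 5 hpf, with 0.0626, 0.187 and 0.0182. Outside the list, the ephrin gene efnb2b was at 0.0148, 0.141 and 0.0425, and dact2, which encodes a regulator of Wnt and Nodal signals, was at 0.244, 0.722 and 0.216. Of the 4 probes of dact2, 3 were higher at 12 hpf, and the remaining one was at 0.492 at 5 hpf and 0.480 at 12 hpf.

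Most members, 126, stood in none of the lists. Some are set together here by role, after their values were seen and with no list behind the grouping. The lipocalin-type prostaglandin D synthase family gave ptgdsb.1 at 0.0982, 0.477 and 0.0556, ptgdsb.2 at 0.209, 0.994 and 0.11, and ptgdsa at 0.00155, 0.0383 and 0.0059. Of the 81 members placed in the RefSeq gene order, ptgdsb.1 and ptgdsb.2 are direct neighbours, and as near copies their probes may share targets. The cystathionine gamma-lyase genes cth and cthl are also neighbours. They were at 0.341, 1.61 and 0.565, and at 0.0427, 0.19 and 0.0641. The third neighbouring pair is hes6 and itm2cb. Subunits of NADPH oxidase appeared in cyba, at 0.0116, 0.0959 and 0.0296, and in noxo1a, at 0.00161, 0.0973 and 0.0353. The quinone reductase gene nqo1 was at 0.291, 1.53 and 0.415, and pck2, for mitochondrial phosphoenolpyruvate carboxykinase, at 0.0171, 1.42 and 0.411.

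Further genes with the largest differences were of mixed function. The scavenger receptor gene cd36 had a difference of 2.65, the arrestin gene arr3b 2.44, the ankyrin repeat gene ankrd31 2.38, the nucleoside diphosphate kinase gene nme2a 2.38, calhm6, of an ion channel family, 2.02, and the dehydrogenase gene dhrs13a.1 1.99. Without a gene symbol stood ENSDART00000074067 at 3.28 and sb:cb113 at 2.86. The apolipoprotein gene apoa1b was not above background at 5 hpf and was at 0.578 at 12 hpf and 0.149 at 24 hpf. The profile nearest to the median of the members was that of sb:cb951, at a Euclidean distance of 0.101 over the 3 centred log2 values, followed by TC423857, TC452910, zgc:56585 and zgc:162318, up to a distance of 0.169.

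Secreted and structural proteins made up part of the remaining named members. The macroglobulin gene a2m2e, of a protease inhibitor family, was at 0.00136 at 5 hpf, 0.421 at 12 hpf and 0.137 at 24 hpf, with 5 of 5 probes higher at 12 hpf. The insulin-like peptide gene insl5a was at 0.00169, 0.314 and 0.123, and the actin-binding transgelin gene tagln2 at 0.284, 1.304 and 0.449. The first 2 of these were not above background at 5 hpf, while tagln2 was above it at every stage. The trypsin-like gene prss59.1 was at 0.0295, 0.0939 and 0.0306, and samd7, known from photoreceptors, was at 0.0196, 0.0755 and 0.0148.

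Several members known only by a clone or probe name had scaled signals well above 1 at 12 hpf. The probe A_15_P685296, which the file pairs with no gene, was at 0.0405 at 5 hpf, 23.5 at 12 hpf and 5.69 at 24 hpf. The transcript wu:fc17h02 was at 0.152, 12.4 and 4.796, and sb:cb166 at 0.0641, 6.20 and 2.19. All 3 were lowest at 5 hpf, as was zgc:162318 at 3.40, 21.4 and 6.65, of whose 3 probes 2 were higher at 12 hpf.

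A few members with the largest differences rested on processed signals unlike those of the scanner. Processed green signal at 12 hpf was at a median of 0.978 times the scanner signal minus local background over all measured spots, with a 99th percentile of 1.70. In NP13324627, the first member, the processed value was 35800 and the scanner signal 287.6, a ratio of 124. The ratio was 24.1 in LOC567348, 22.3 in TC393487 and 74.1 in 1 of the 2 probes of agr2. The part of this gap in their rank was not tested. On scanner signals, NP13324627 kept a difference of 3.61, LOC567348 2.56 and TC393487 2.18. The difference of agr2, a disulfide isomerase gene of hatching gland and mucous cells, was 2.61 on processed and -2.35 on scanner signals, so its call as a member ends there. The growth factor binding protein gene igfbp5a (igfbp5b on the array) had 1 of 2 probes above background, at 12 hpf only, with a difference of 6.42 on scanner signals. Over all 150 members, 149 had a scanner difference above 0 and 139 one of at least 1, with a median of 1.60. Of all names, 1.31% reached 1. The scanner signals are of the same spots and arrays that chose the members, so these counts are description and no independent support.

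**Figure D3:**
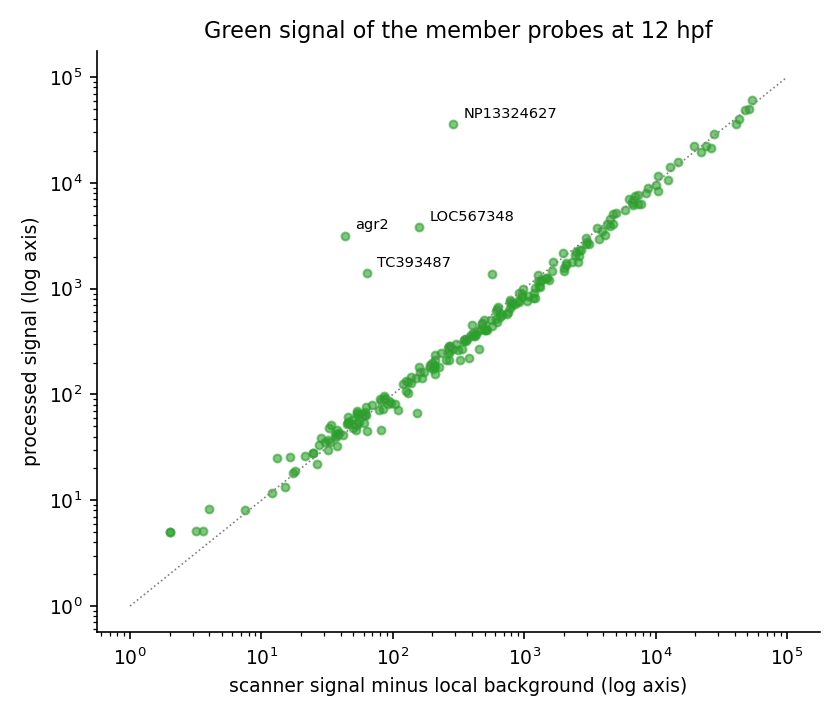
Processed green signal against scanner green signal minus local background at 12 hpf (both log axes) for each probe of the members. The dotted line marks equality, and the named probes are those where the processed value exceeded 10 times the scanner value, from NP13324627, LOC567348, TC393487 and agr2.

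The cortisol channel holds other embryos and was not used by the rule, although it shares arrays and spots with the vehicle channel. In it 142 of 150 members (94.7%) were higher at 12 than at both 5 and 24 hpf, against 16.9% of all names. The gap was at least 2-fold in 103 members (68.7%), against 1.88% of all names, and its median was 1.58 (log2) against -0.35. These counts use processed red signal. At 12 hpf it was 167000 in NP13324627, 22500 in LOC567348, 1500 in TC393487 and 22700 in 1 probe of agr2. Scanner red signal minus background there was 2219, 45.8, 9.5 and 35. These 4 transcripts, named above for their green signal, are counted as cortisol peaks. In 1 probe of msgn1 the processed and scanner values were 21600 and 2188. The red channel was dim at the later stages: the 95th percentile of scanner signal minus background was 7318 at 5 hpf, 329.7 at 12 hpf and 290.0 at 24 hpf, against 3710, 4350 and 1978 in green. Members above background in red numbered 115, 128 and 75 at these stages. These are 76.7%, 85.3% and 50% of members, against 74.6%, 48.1% and 46.6% of all names. The shares with a peak over all names thus include many names not measured in red, and are not a like base for the members. Of the 128 members above background at 12 hpf, 122 were higher there than at 5 and 24 hpf. That filter used the red signal of the same stage, so this count is description only. The cortisol median of the members was 0.00956, 0.195 and 0.0284.

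The segmentation members were also highest at 12 hpf in cortisol embryos. Over the whole segmentation list, 24 of 47 names were higher at 12 than at 5 and 24 hpf in cortisol, with a median difference of 0.05. Scaled cortisol signal of msgn1 was 0.089 at 5 hpf, 6.75 at 12 hpf and 0.719 at 24 hpf, that of tbx16l was 0.0513, 2.99 and 0.309, and that of tbx6 was 0.00252, 2.45 and 0.238. Values of cdx4 were 0.0459, 2.99 and 0.237, of mespba 0.0206, 0.411 and 0.018, and of myf5 0.00333, 2.16 and 0.24. Each of these 6 genes peaked at 12 hpf in cortisol, as did 94.7% of all members, and their vehicle peak was set by the rule. In mespba the 24 hpf value lay above that at 5 hpf in vehicle and below it in cortisol. That gene had no cortisol over vehicle ratio at 24 hpf, so this contrast is not a measured one. Of the 8 members without the peak in cortisol embryos, LOC100141479 and LOC100002838 were highest at 24 hpf and the others at 5 hpf. The largest shortfall was in zgc:73337, whose cortisol signal was 0.582 at 5 hpf, 0.0391 at 12 hpf and 0.0284 at 24 hpf, and in odf3l2a (zgc:110183 on the array), at 0.458, 0.134 and 0.0169. Both are described below with the ratio at 5 hpf.

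**Figure D4:**
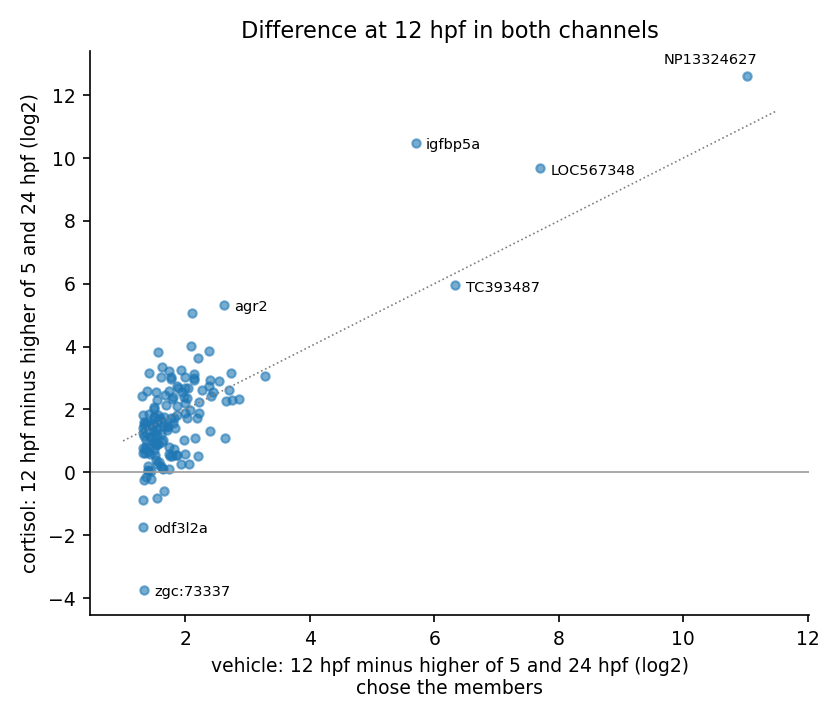
The 12 hpf difference of each of the 150 members (log2), with the vehicle channel that chose them on the horizontal axis and the cortisol channel on the vertical axis. The dotted line marks equal differences. Points below the grey line at 0 are members with no cortisol peak at 12 hpf, lowest in zgc:73337 and odf3l2a. In both channels NP13324627, LOC567348, TC393487 and agr2 rest on processed signals unlike those of the scanner.

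The ratio of cortisol over vehicle was computed from scanner signals where both channels were above background, and is given in log2, positive where cortisol was higher. The vehicle signal that chose the members is its denominator: the rule favours high vehicle values at 12 hpf and low ones at 5 and 24 hpf, so the members' shifts are not independent of it. At 5 hpf, 110 members had a ratio, with a median of -0.01 against 0.01 over 19406 names, and 52.7% of them were below 0, against 46.3% of all. The pooled SD between probes of a gene was 0.20. In 7 members (6.36%) the ratio was at least 2-fold higher in cortisol, against 0.577% of all names, and 0 members were 2-fold lower, against 0.139%. The authors' deposited table gave 11 higher (10% of members, 3.08% of all names) and 6 lower (5.45%, 1.97%), and the 7 were among its 11.

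Of those 7, 5 carried no descriptive gene symbol. The ratio was 3.82 in zgc:73337, 2.82 in TC383083, 2.39 in odf3l2a, 2.26 in TC452910, 1.72 in LOC795984, 1.51 in EH540773 and 1.14 in kcnip3b, which encodes a calcium-binding partner of potassium channels. In odf3l2a, a gene named for a sperm tail protein, the 2 probes gave 1.65 and 3.14, and in kcnip3b 0.58 and 1.70, while the remaining 5 rested on 1 probe. Scaled vehicle signal of these 7 at 5 hpf ran from 0.00897 to 0.124 and cortisol signal from 0.0672 to 0.582. At 12 hpf the ratio of the same 7 names lay between -0.26 in TC452910 and 0.28 in LOC795984, within 2-fold in each. The lowest ratios at 5 hpf were -0.59 in cdx4, -0.59 in dpp7, -0.57 in msgn1, -0.46 in krt99 and -0.39 in hes6. For cdx4 and dpp7 the authors' deposited table gave -1.23 and -1.01.

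At 12 hpf 128 members had a ratio, with a median of -0.09 against -0.03 over 12823 names, and 66.4% were below 0, against 55.7% of all. The SD between probes was 0.33. With median centring the medians were -2.00 and -1.69. In 3 members (2.34%) cortisol was at least 2-fold higher, against 0.6% of all names: NP13324627 at 6.02, igfbp5a at 4.84 and agr2 at 1.06, each on 1 probe. All 3 are among the transcripts named above for their probes, and after them came LOC567348 at 0.89 and nipsnap1 at 0.42. In the authors' deposited table NP13324627 was at 0.74, igfbp5a at 1.76 and agr2 at 0.95. The scanner signal of igfbp5a was 2629 in vehicle and 6179 in cortisol.

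In 1 member (0.781%) cortisol was at least 2-fold lower at 12 hpf, against 0.32% of all names. It was LOC570474 at -1.49, whose scaled signal was 6.84 in vehicle and 4.21 in cortisol. Next lowest were apoa1b at -0.90, ENSDART00000074067 at -0.87, fn1a at -0.75 and dpp7 at -0.74. The authors' deposited table gave 2 higher (1.56%, against 2.87% of all names) and 7 lower (5.47%, against 3.09%). It put apoa1b at -1.65, rarga at -1.73 and dhrs13a.1 at -1.13, while LOC570474 was at -0.63 there. No segmentation member reached 2-fold at 12 hpf. The 8 of them had a median of -0.07 and ran from -0.58 in hes6 to 0.28 in tbx6. Of these 8, 5 were below 0, beside 66.4% of all measured members and 55.7% of all names.

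At 24 hpf 74 members had a ratio, and 53 more were above background in vehicle only and have no fold. The median of the 74 was -0.24 against -0.02 over 12362 names. Of them 58 (78.4%) were below 0, against 53.7% of all names. The SD between probes of a gene was 0.33. With no filter on dim probes the median of the members was -0.07, against -0.01 over all names, and with median centring it was -1.40 against -1.21. In 6 members (8.11%) cortisol was at least 2-fold lower, against 0.777% of all names, and 0 were 2-fold higher, against 0.332%. Median centring put 63.5% of members and 59.5% of all names 2-fold lower. The authors' deposited table gave a median of -0.51 against 0.00, with 17 lower (23%, against 2.6% of all names) and 2 higher (2.7%, against 3.68%), and all 6 were among its 17.

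The 6 were the keratin gene krt99 at -1.96, six7 at -1.60, LOC570474 at -1.46, and the somite genes tbx16l at -1.17, msgn1 at -1.05 and myf5 at -1.04. In msgn1 the 5 measured probes ran from -1.25 to -0.77, in tbx16l 2 probes gave -1.50 and -0.83, in krt99 2 gave -2.14 and -1.78, and in myf5 2 gave -1.28 and -0.80. No measured probe of these 4 genes reached 0, but the means of these probes chose the genes, so this is description only. The red signals behind them were small: the scanner value of six7 was 139.5 in cortisol over a local background of 129.0, and 770.0 in vehicle, and that of msgn1 was 227.5 over 131.9, and 1600 in vehicle. The deposited ratio was -4.02 for six7 and -1.39 for msgn1. Because the sample at 24 hpf is a single experiment with a dim red channel, the part of either in these values was not tested.

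On the ratio from scanner signals, other members of the same groups lay nearer to 0 at 24 hpf. Of the segmentation list, the 7 measured members were all below 0, beside 78.4% of all measured members and 53.7% of all names. The median of these 7 was -0.71, against -0.12 over the 36 measured names of that list and -0.02 over all names. The ratio was -0.93 in cdx4, -0.71 in tbx6, -0.52 in ripply1, -0.37 in hes6 and -0.11 in ripply2. In egr2b it was -0.55, in irx7 -0.60, in her3 -0.26 and in he1.1 -0.47. Among transcripts known only by a clone or probe name, MGC174155 was at -0.98, A_15_P685296 at -0.90, zgc:162318 at -0.70 and wu:fc17h02 at -0.05. Close to 0 on this ratio were dmrt2a at -0.02, msx1a at -0.04 and nkx2.7 at -0.08. The authors' deposited table put them at -0.69, -0.22 and -0.83. It put cdx4 at -1.50 and tbx6 at -1.44, below its value for msgn1. The highest values from scanner signals were 0.34 in sb:cb166, 0.29 in ENSDART00000111661, 0.22 in LOC100150202, 0.21 in TC386914 and 0.16 in lmo2. In the same order, the deposited ratios were 0.39, 0.38, -0.82, 0.12 and -0.04.

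**Figure D5:**
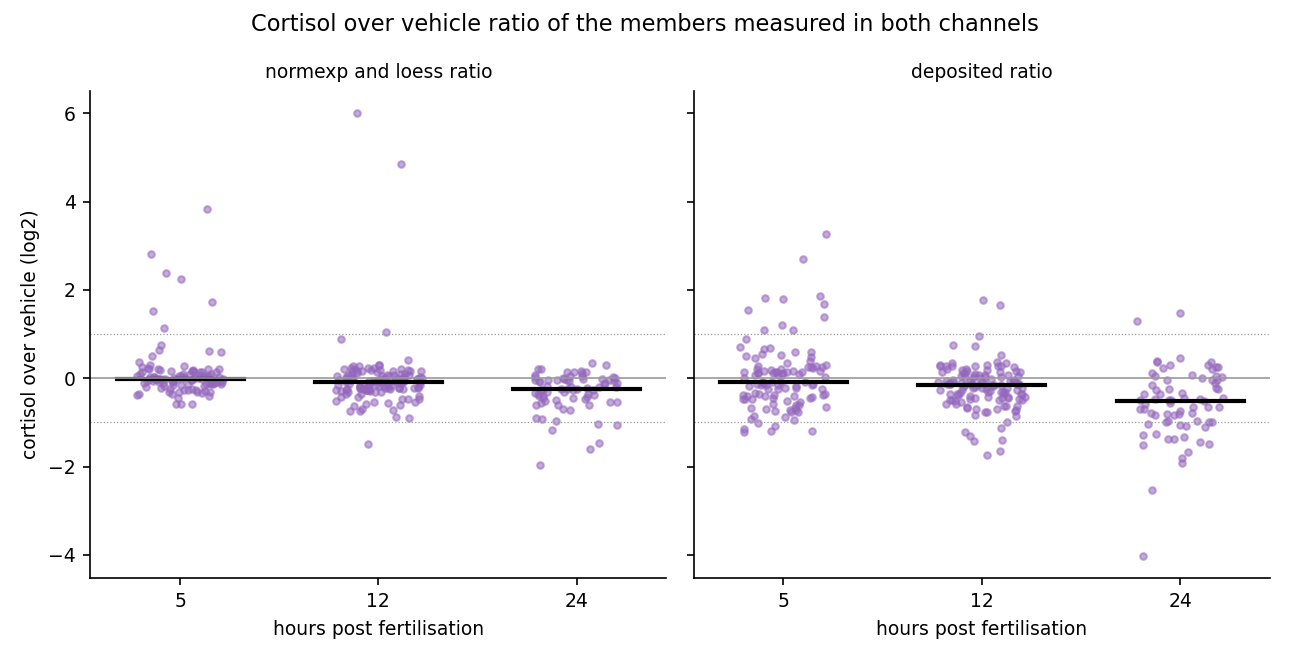
Cortisol over vehicle ratio (log2) of the members measured in both channels at 5, 12 and 24 hpf (n = 110, 128 and 74), from normexp and loess (left) and as deposited (right). Black bars are medians and dotted lines mark 2-fold. At 5 hpf 7 members stand above the upper dotted line on the left, and at 24 hpf 6 stand below the lower one.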

How the data were processed

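The members and the gene lists were chosen with earlier results of these data known. The authors deposited, per the file headers, the median pixel intensity of each spot with its local background, a processed intensity (background-subtracted and dye-normalized) and, as log10, the normalized ratio of cortisol (red) to vehicle (green). Agilent Feature Extraction is named, without a version, in the submitters' processing notes. The files of 5 and 12 hpf may hold means over replicate arrays, which no label or header states.

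Processed intensity gave the scaled signals of 43603 probes. Ratios came from scanner signals after normexp (offset 50) and loess within each array, with control spots at weight 0 and 12, 9 and 0 spots of extreme local background left out (limma 3.58.1, R 4.3.3). The deposited log10 ratio, rescaled to log2, was the alternative. Measured probes were averaged per gene name. The selection code was run on simulated data with a planted gap larger than that of most members and no dim names planted. That run does not cover the dim members. With 1 sample per stage and channel, the number of arrays limits the precision and there is no test. Means plus 2 SD of negative controls set the background limit.

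Of the members, 75 were named by accession, 1 by symbol and 5 by synonym through RefSeq (GRCz12tu), and 69 kept the name in the file. The text names the 20 members with a proper symbol and the largest difference, up to 8 members per list, the 5 highest and 5 lowest ratios per stage, the 5 names on either side of the limit, up to 10 of the segmentation list outside it and the 5 nearest profiles. Other genes were named after their values were seen. Promoter and protein sequences were not used here, and a planned promoter motif search was not run. Python 3.11.15, numpy 2.4.6, pandas 2.3.3 and matplotlib 3.10.9 were used.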

Additional observations from a re-analysis of the deposited data

How the results depend on the processing

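Of the 150 members, between 113 and 147 were chosen again after scaling by the 75th percentile or the median, quantile normalization, scanner signals, the median over probes or a filter on dim probes. With a pseudocount of 0.05, 93 were chosen again, and with the mean of 5 and 24 hpf in place of the higher, 44. The difference of agr2 was -2.35 on scanner signals. The count with a peak in the cortisol channel stayed between 122 and 142 under its 4 alternatives.

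The deposited ratio gave 11 members 2-fold higher and 6 lower at 5 hpf, 7 lower at 12 hpf, and 2 higher and 17 lower at 24 hpf. With all spots kept, 5 were higher at 12 hpf, and with a normexp offset of 16, 3 were lower. At 24 hpf that offset put the members' median at -0.37, against -0.01 over all names. It put 10.8% of members 2-fold lower there, against 1.81% of all names. Median centring moved the median of all names to 0.16, -1.69 and -1.21 at 5, 12 and 24 hpf. Under it the members' median was -2.00 at 12 hpf and -1.40 at 24 hpf, and 102 and 47 members were 2-fold lower. These are 79.7% and 63.5% of members, against 71.3% and 59.5% of all names. The cause of these moves was not tested. Red signals near background limit all ratios at 12 and 24 hpf.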
